A study of Mus musculus with 6 samples.

Results

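Mouse chromosomes carry the centromere at their low-coordinate end, and the regions described here are those of the 19 autosomes that start within the first 10 Mb of mm10 coordinates. They were chosen by position only: 3253 of 57177 autosomal regions (5.69%), out of 58511 regions in the 3 deposited comparison tables, and 3250 of them were present in all 3 tables and 3 in 2. The remaining 53924 autosomal regions served for comparison. H3K9me3 was profiled by CUT&Tag, in which an antibody directs a transposase to the mark, in endothelial progenitor cells (EPCs) cultured from bone marrow. The cells were lineage-depleted, magnetically selected for Sca-1 and CD31 and grown in EGM-2 medium. They came from C57BL/6J mice that were male (M-EPC), female with ovaries (F-EPC) or ovariectomized (OVX-EPC), with 2 libraries per group, and the ovaries had been removed by the animal supplier. No other allele or agent was used in these groups, the sources name no separate animals for the 2 libraries of a group, and p-values therefore measure the spread between libraries, which may be technical. A read count of a histone mark does not measure marker expression, so the cell type label was not checked here. In bulk cells, fewer cells with the mark and less mark per cell cannot be told apart.

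H3K9me3 is the mark of constitutive heterochromatin. It is laid down by enzymes that include Suv39h1 and Suv39h2 at the satellite repeats around the centromere, where the HP1 proteins bind it, and by Setdb1 at many transposable elements. Mouse pericentromeres are built of the major (gamma) satellite and centromeres of the minor satellite. Most of these arrays are missing from the assembly, which holds a run of unknown bases at the start of each chromosome. The first known base lay at position 3000001 to 3100001 of the 19 autosomes, so the end regions cover the first known megabases next to the satellite blocks.

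The strongest end regions fell into a few loci, whose sequence is given first. Member regions no more than 10 kb apart were joined into 2232 loci, of which 1614 held a single region. The 10 loci with the most reads held 117 regions and 29.3% of the end reads, and 9 of them began within the first megabase of known sequence. These loci and the repeat unit below were defined after the read counts and the sequence had been seen, and they are descriptions.

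The largest locus lay on chromosome 11 at chr11:3123882-3199293 (mm10) and held 31 regions assigned to Pisd-ps1, Sfi1, Gm11399, Gm11400 and Fau-ps2. Sfi1 encodes a centrin-binding protein of the centrosome, and Pisd-ps1 and Fau-ps2 are pseudogenes. By BLAST at 90% identity over 80% of the region, 25 of the 31 regions had a copy on a contig of the GRCm38.p6 assembly outside its chromosomes, at 91.3% to 99.5% identity, 5 had one on chromosome 5 and 3 on chromosome 17. The kind of this contig was not checked. The stretch below comes from the Sfi1 promoter region at chr11:3142610-3143009, the strongest end region with copies in 2 other places and a closely matching stretch outside exons. The stretch is shown because reads that cover only bases identical between copies cannot be assigned to 1 of them. It lies at chr11:3142670-3142819 on the plus strand. Its copy on the contig had 0 differences in 150 bases and is not printed, and its copy on the minus strand of chr5:32723865-32724014 had 7, which the capitals mark.
Sfi1 region, chromosome 11: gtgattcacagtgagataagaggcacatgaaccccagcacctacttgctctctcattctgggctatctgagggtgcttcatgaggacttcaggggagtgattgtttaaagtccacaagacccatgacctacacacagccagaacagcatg
copy on chromosome 5: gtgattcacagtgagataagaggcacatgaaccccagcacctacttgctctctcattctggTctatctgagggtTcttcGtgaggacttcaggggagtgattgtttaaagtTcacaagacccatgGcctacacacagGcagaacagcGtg

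The second locus, on chromosome 9 at chr9:2999976-3077102, held 26 regions assigned to the predicted genes Gm10722, Gm11168, Gm10721 and their neighbours. It is a tandem array. At a shift of 234 bases, the unit length of the mouse major satellite, 47.1% of its bases were identical, against 26.6% from base composition alone, and the highest share, 48.1%, was found at a shift of 31 bases. Within the locus 21 of the 26 regions had at least 1 further copy in the same array. The neighbouring units at chr9:3010749-3010982 and chr9:3010983-3011216, both on the plus strand and outside annotated exons, were 94.9% identical. They were picked as the most alike pair of neighbouring units outside exons, so their identity is not typical of the array. They are shown as a repeat of satellite length, and capitals mark the 12 bases that differ.
unit 1, chromosome 9: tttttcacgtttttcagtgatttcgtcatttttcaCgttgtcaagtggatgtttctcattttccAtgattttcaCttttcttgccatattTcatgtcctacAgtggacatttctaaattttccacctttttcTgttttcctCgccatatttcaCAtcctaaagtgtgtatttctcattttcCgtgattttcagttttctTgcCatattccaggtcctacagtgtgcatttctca
unit 2, chromosome 9: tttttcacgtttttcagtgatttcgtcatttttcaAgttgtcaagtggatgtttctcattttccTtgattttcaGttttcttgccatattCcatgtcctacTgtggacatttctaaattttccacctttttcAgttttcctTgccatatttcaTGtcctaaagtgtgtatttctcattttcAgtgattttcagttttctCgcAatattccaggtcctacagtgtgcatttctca

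Of the 10 loci, 5 shared another repeat. They lay on chromosome 17 (Gm10232, 17 regions), chromosome 3 (Gm28002 and Gm27460, 14 regions), chromosome 4 (Gm27878, 9 regions, and Vmn1r-ps2, 4 regions) and chromosome 16 (Gm23215, 5 regions). Shifted by 21 bases, 48.4% to 66.1% of the bases of these loci were identical, against 25.6% to 26.1% from composition. The period was not particular to the ends. A strong locus of the rest, at chr7:64073762-64090782 with 12 regions, had 67.8% identical bases at the same shift, against 26.3% from composition. The most frequent 21-base word, CACTGTGGTGTCACAGTGCTC, occurred 110 times exactly in the 5 loci, both strands counted. With up to 4 mismatches it was found in 47 end regions on 4 chromosomes (1.44% of 3253) and in 31 regions of the rest (0.0575%), against 0.136% of all autosomal regions. All 47 end regions lay in the first megabase and inside these loci, with a median of 13 copies and at most 16 in a region. The windows below come from the strongest region with the unit on each of the 4 chromosomes and are oriented alike. Each was placed to hold the most copies of the 8-base word TGTCACAG. Capitals mark exact copies of the 8-base word TGTCACAG, which lie at multiples of about 21 bases from each other. They lie at chr3:3013499-3013624 (minus strand), chr4:3083430-3083555 (minus), chr16:3234061-3234186 (plus) and chr17:3010508-3010633 (plus).
Gm28002, chromosome 3: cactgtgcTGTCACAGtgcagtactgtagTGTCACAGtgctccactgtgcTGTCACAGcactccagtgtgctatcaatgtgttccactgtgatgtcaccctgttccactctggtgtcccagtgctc
Vmn1r-ps2, chromosome 4: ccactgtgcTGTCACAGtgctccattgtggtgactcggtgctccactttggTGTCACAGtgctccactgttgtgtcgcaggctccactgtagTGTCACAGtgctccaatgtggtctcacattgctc
Gm23215, chromosome 16: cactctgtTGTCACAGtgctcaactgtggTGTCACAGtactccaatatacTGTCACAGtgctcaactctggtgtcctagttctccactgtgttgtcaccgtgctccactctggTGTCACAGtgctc
Gm10232, chromosome 17: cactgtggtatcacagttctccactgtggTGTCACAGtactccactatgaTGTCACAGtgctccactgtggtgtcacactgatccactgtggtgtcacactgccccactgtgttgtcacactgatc
Vmn1r-ps2 is a vomeronasal receptor pseudogene, and the other names are predicted genes without a known role.

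Regions were about as dense at the chromosome ends as elsewhere, while the read density over all autosomes was higher. The end held 24.6 regions per assembled Mb and the rest 23.8, and the last 10 Mb of the same chromosomes held 29.5. The end was the denser part on 9 chromosomes and the sparser on 10. Chromosome 19 had the highest density at its end, with 39.7 regions per Mb against 20.05 on its rest, and chromosome 14 the lowest, with 9.29 against 27.9. Reads were scaled to 1000000 region reads per library (CPM). Over the M-EPC and OVX-EPC libraries the end held 566 CPM per assembled Mb and the rest 400.2. On chromosome 11 these values were 2198 and 460.2, on chromosome 19 978 and 311, on chromosome 3 726 and 318 and on chromosome 9 698 and 333. The read density was higher at the end on 10 chromosomes and lower on 9, which included chromosome 14 (84.8 against 355), chromosome 2 (270 against 404) and chromosome 10 (405 against 523). The mean region held 23.0 CPM at the ends and 16.8 on the rest, while the medians were 12.2 and 12.1. Of the 100 strongest autosomal regions 48 were end regions, and of the 1000 strongest 154.

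**Figure D1:**
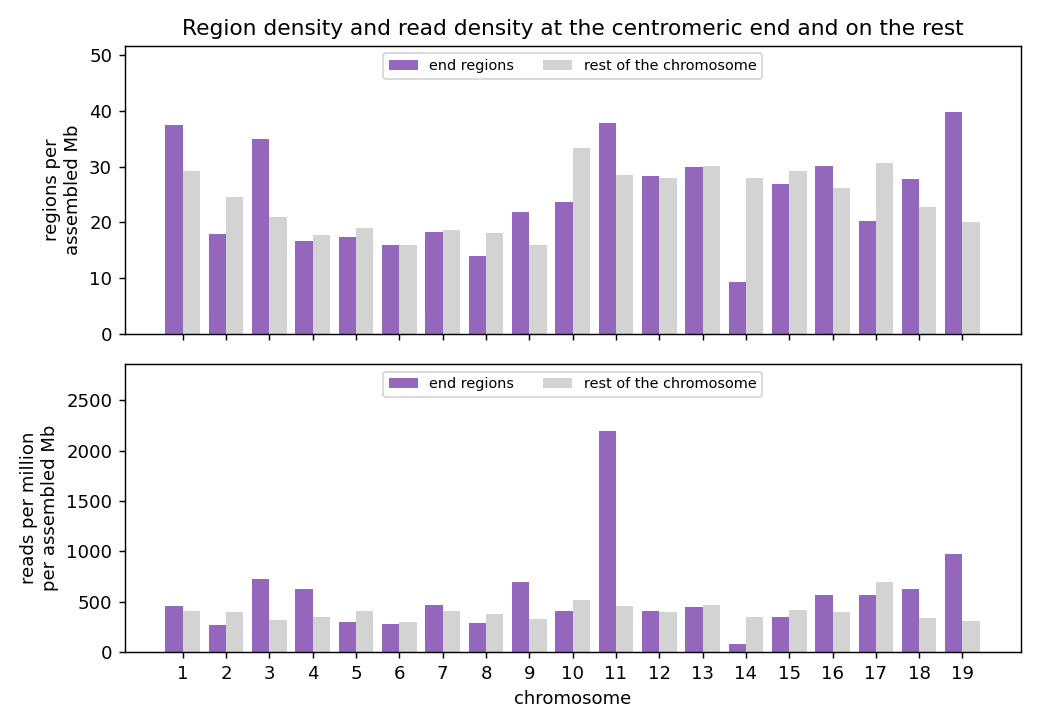
Regions per assembled megabase (top) and CPM per assembled megabase, mean of the 4 M-EPC and OVX-EPC libraries (bottom), for the end (purple) and the rest (grey) of each autosome. Chromosome 11 stands out in reads, with 2198 at the end against 460.2, and chromosome 14 has the fewest regions at its end, 9.29 per megabase.

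The excess lay in the first megabase after the first known base. This bin held 628 regions and 42.3% of the end reads. Its read density was 1578 and 1591 CPM per megabase in the M-EPC libraries and 1816 and 1712 in the OVX-EPC libraries. In the 6 following bins the mean of the 4 libraries lay between 279 and 489, on both sides of the level of the rest. Without the 10 loci the first megabase held 512 regions and 545 CPM per megabase, and all end regions together 400.3 against 400.2 on the rest. The loci were left out at the ends only, and the rest kept its own strongest loci. The median first-megabase region was also higher, at 17.3 CPM, or 14.1 without the 10 loci, against 12.1 on the rest. At the 10 Mb limit itself nothing stepped: the last megabase inside it held 369 regions with a median of 10.4 CPM and the first outside it 381 regions with 10.9.

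**Figure D2:**
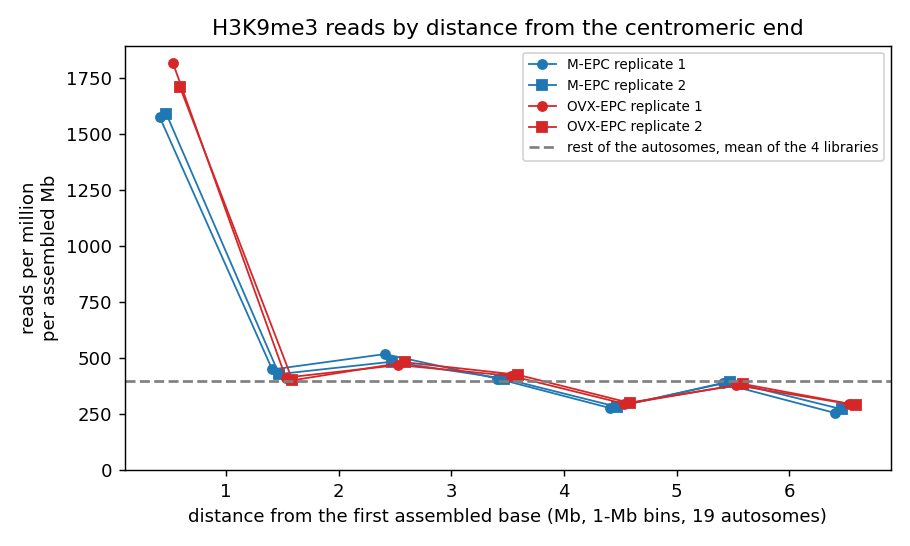
CPM per assembled megabase against the distance from the first assembled base in 1-Mb bins over the 19 autosomes, one line per library, with M-EPC in blue, OVX-EPC in red and the mean of the rest of the autosomes as a dashed line. All 4 libraries lie at 1578 or above in the first bin and on both sides of the dashed line (400.2) further in, where the means run from 279 to 489.

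The sequence around the ends differed little from the rest in base content. The median GC content was 48.8% in end regions and 48.5% on the rest, and the median number of CpG sites was 4 in both. The repeat-masked share of a region was 24.3% at the ends, 33.8% in the first megabase and 46.8% in the 10 loci, against 20.8% on the rest. At least 1 further copy in the assembly was found for 590 of the 3253 end regions (18.1%), and at least 10 for 236. For 333 end regions a copy lay on a contig outside the chromosomes. Whether such a contig is another version of the same locus was not checked, and regions of the rest were not searched. Regions with copies depend on how multiply mapped reads were treated, and their part in the result was not tested. The CENP-B box core, the binding site of a centromere protein in the minor satellite, matched 0 end regions and 23 regions of the rest (0.0427%), on either strand. The telomere unit TTAGGG, repeated 2 times in a row on either strand, was present in 4 end regions (0.123%) and 49 of the rest (0.0909%). The richest of these, an intronic region at chr6:4923795-4924194, had 38 overlapping matches and only 8 and 3 reads for M-EPC against 6 and 7 for OVX-EPC.

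The total number of reads in all regions was 501237 and 573821 for M-EPC against 501840 and 548290 for OVX-EPC. F-EPC replicate 1 had 0 reads on 11 autosomes and F-EPC replicate 2 on 6, so F-EPC was used on chromosomes 1 and 10 to 15 and on chromosome 16 up to 30.6 Mb, where 1550 end regions lie beside 25449 others. There the libraries held 200296 to 288353 reads. The median end region held 5 to 9 reads in a library, and small changes of single regions were not detectable at this depth.

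The first comparison asked whether the mark differs between cells of males and of ovariectomized females. End regions held a larger share of the autosomal reads in OVX-EPC. The share was 7.42% and 7.40% in the M-EPC libraries and 7.93% and 7.75% in the OVX-EPC libraries. Both OVX-EPC values lay above both M-EPC values, and the 95% Wilson intervals of single libraries, which cover counting error only, ran from 7.33% to 7.496% in M-EPC and from 7.68% to 8.01% in OVX-EPC. The means were 7.41% ± 0.016 (SD, n = 2) and 7.84% ± 0.13 (SD, n = 2), a difference of 0.431 percentage points. It was 0.194 in distal intergenic regions, 0.771 with the limit at 20 Mb, 0.947 in regions with at least 10 reads in 2 libraries, 0.0508 without the 10 loci and 0.0648 without the first megabase. The exact two-sided permutation test gave p = 0.33, the smallest value that 2 libraries against 2 allow.

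Most of this difference lay in the strongest loci. Their share of autosomal reads was 2.00% and 2.06% for M-EPC against 2.54% and 2.33% for OVX-EPC, with no overlap. The other end regions held 5.42% and 5.34% for M-EPC against 5.39% and 5.42% for OVX-EPC, and these values overlapped. End regions past the first megabase held 4.40% and 4.36% for M-EPC against 4.41% and 4.43% for OVX-EPC, which left OVX-EPC above M-EPC by a narrow margin.

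**Figure D3:**
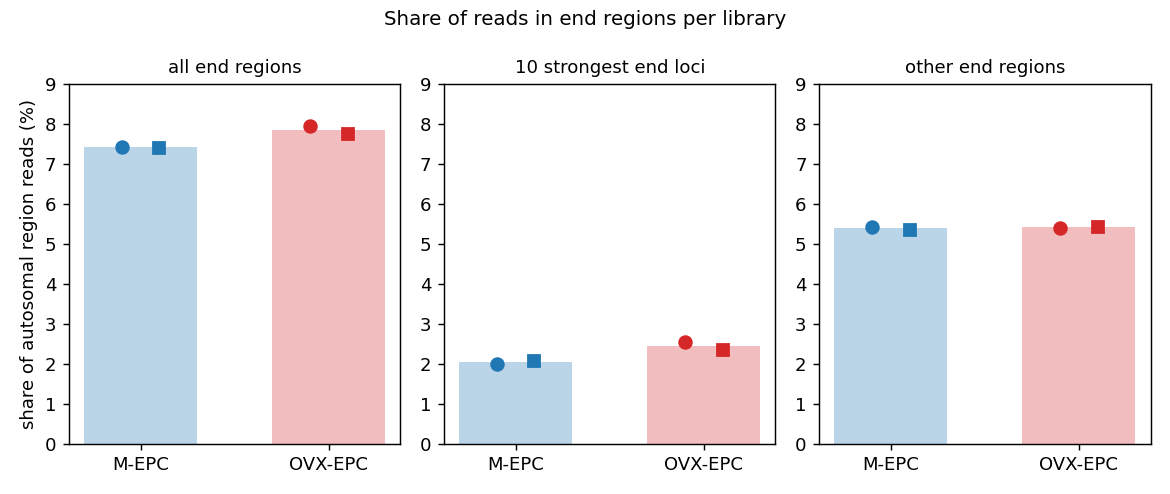
Share of autosomal region reads (%) in all end regions, in their 10 strongest loci and in the other end regions, with points for libraries (circle replicate 1, square replicate 2) and bars for the group mean of 2 libraries. The OVX-EPC points lie above the M-EPC points in the first and second panels and overlap them in the third.

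Among the 10 loci, OVX-EPC lay above M-EPC without overlap in 9. Of all 40663 autosomal loci built the same way 22% did so, and of the 2232 end loci 20.6%. The chromosome 11 locus held 9919 and 11019 CPM for M-EPC against 13189 and 11147 for OVX-EPC, so the lower OVX-EPC library was close to the higher M-EPC library. The chromosome 9 array held 2318 and 2401 for M-EPC against 3031 and 3046 for OVX-EPC, a ratio of means of 1.29. At Vmn1r-ps2 on chromosome 4 the values were 884 and 880.1 for M-EPC against 1166 and 1142 for OVX-EPC, a ratio of 1.31. Both loci were well separated, and the ratios of the other 8 ran from 1.12 to 1.20. The exception was Vmn1r-ps151 on chromosome 18, where 555 and 744 in M-EPC overlapped 801 and 726 in OVX-EPC. At Vmn1r-ps2 a single region, chr4:3089991-3090390, held 150 and 171 of the 443 and 505 M-EPC reads. In OVX-EPC it held 248 and 262 of the 585 and 626 reads. That region holds no copy of the 21-base unit, and its part in the ratio was not tested. Scaling by the authors' size factors gave ratios of 1.08 to 1.27 for the 10 loci and TMM factors 1.21 to 1.41, all above 1.

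**Figure D4:**
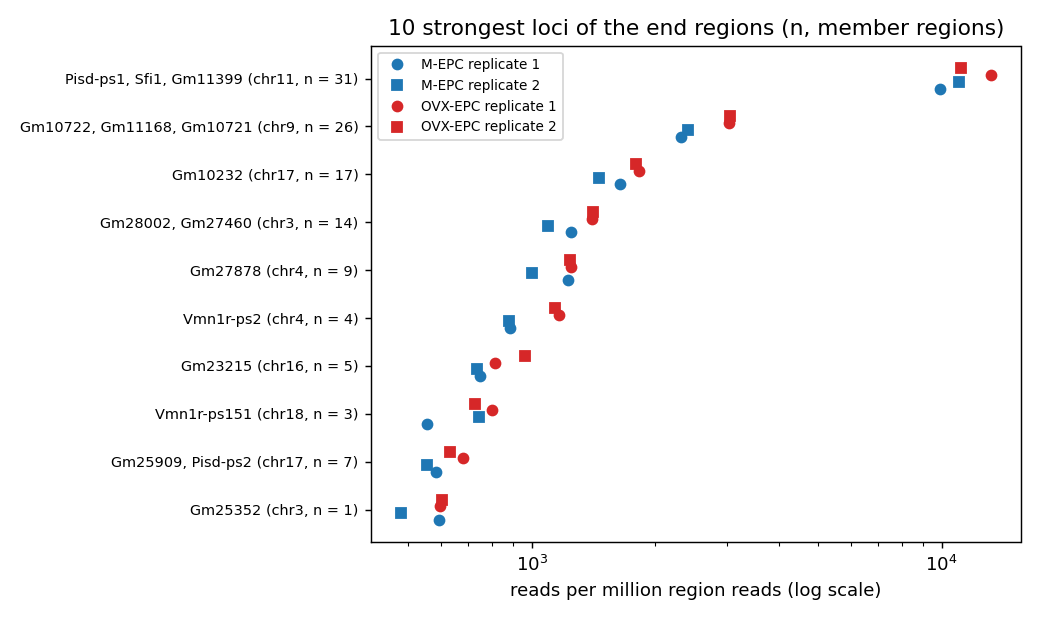
CPM (log axis) of the 10 strongest end loci in the 2 M-EPC (blue) and 2 OVX-EPC (red) libraries, circle for replicate 1 and square for replicate 2. Red points lie to the right of the blue ones in 9 loci, most clearly for the chromosome 9 array and Vmn1r-ps2, and overlap them at Vmn1r-ps151.

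The rest of the autosomes also held strong loci that were higher in OVX-EPC. Of its 10 strongest, 5 lay above M-EPC without overlap and 2 below, with ratios from 0.712 to 1.501. Those above included the tandem repeat of Gm21738 on chromosome 14 at 1.24 and Gm10801 and Gm10800 on chromosome 2 at 1.15. Regions with the 21-base unit were compared between the 2 places, 47 at the ends, all inside the 10 loci, and 31 on the rest. End regions with the unit held 5425 and 4845 CPM for M-EPC against 5908 and 6041 for OVX-EPC, while regions of the rest with the unit held 1446 and 1345 for M-EPC against 1301 and 1206 for OVX-EPC. The ratio of end to rest was 3.75 and 3.601 for M-EPC against 4.54 and 5.01 for OVX-EPC, without overlap, and it does not depend on library scaling. The chromosome 7 locus with the 21-base period held 1143 and 971 CPM for M-EPC against 972 and 897 for OVX-EPC, with overlap. How far the contrast rests on single loci was not tested.

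For F-EPC the shares overlapped. On the chromosomes with F-EPC reads the end share was 8.08% and 8.26% for M-EPC, 8.43% and 8.25% for F-EPC, and 8.77% and 8.36% for OVX-EPC. The order of the means was M-EPC (8.17% ± 0.13), F-EPC (8.34% ± 0.13) and OVX-EPC (8.56% ± 0.29; SD, n = 2 each). The steps depended on single libraries: OVX-EPC minus F-EPC was 0.224 percentage points and 0.0160 without OVX-EPC replicate 1, and F-EPC minus M-EPC was 0.168 and ran from 0.0757 (without M-EPC replicate 1) to 0.260 (without M-EPC replicate 2). F-EPC overlapped both other groups, with exact permutation p = 0.667 against M-EPC and p = 0.667 against OVX-EPC. At the chromosome 11 locus the CPM on these chromosomes were 24823 and 26872 for M-EPC, 27147 and 25329 for F-EPC, and 31668 and 27370 for OVX-EPC. F-EPC overlapped M-EPC there, and OVX-EPC lay above F-EPC without overlap. At Gm23215 on chromosome 16 the values were 1867 and 1798 for M-EPC, 2317 and 2366 for F-EPC, and 1957 and 2360 for OVX-EPC, so F-EPC lay above M-EPC without overlap and overlapped OVX-EPC.

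Within a library the median end region held the same number of reads as the median region of the rest, or 1 more. The median log2 CPM (1 added) of end regions minus that of the rest on the chromosomes where F-EPC was used was 0 in 5 of the 6 libraries and 0.16 in F-EPC replicate 1 (mean 0.027 ± 0.067, SD, n = 6; exact sign-flip permutation p = 1). The medians are low whole read counts, 9 against 8 in F-EPC replicate 1, so small differences in level do not show. With 5 values of 0, the test gives the same p whatever the other value is. It therefore cannot decide whether the level differs. Over all autosomes the difference of the medians was 0 in 3 of the 4 M-EPC and OVX-EPC libraries and 0.21 in OVX-EPC replicate 1. With the limit at 5 Mb, on the chromosomes where F-EPC was used, it was above 0 in 6 of 6 libraries, with a mean of 0.24 ± 0.085 (SD, n = 6; exact sign-flip permutation p = 0.031, the smallest that 6 libraries allow).

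Across single regions the medians of the log2 fold changes leaned toward M-EPC less at the ends than elsewhere. In OVX-EPC against M-EPC, the median over 1042 tested end regions was -0.07 and over 15574 tested regions of the rest -0.18, a difference of 0.11. The same difference between the replicates of M-EPC was 0, and between those of OVX-EPC 0.051. The end median lay above that of the rest on 15 of 19 chromosomes. In F-EPC against M-EPC the medians were -0.13 and -0.20, and in OVX-EPC against F-EPC 0.051 and 0.028. In each of these comparisons the end median lay above that of the rest on only 5 of 8 chromosomes. The first and second comparisons share the M-EPC libraries, and the values are given side by side only.

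Few single end regions passed the test across all regions. With limma and Benjamini-Hochberg adjustment, 1 of 1042 tested end regions passed an adjusted p of 0.05 in OVX-EPC against M-EPC, where 0.449% of all 16931 tested regions did. In F-EPC against M-EPC 2 of 502 passed, where 1.79% of 8139 did, and in OVX-EPC against F-EPC 0 of 491, where 0.0127% of 7897 did. The calls of this fit at the ends were lower than in M-EPC, but the direction depended on the method. In OVX-EPC against M-EPC, limma with TMM factors called 1 end region higher and 0 lower, DESeq2 1 higher and 0 lower, and edgeR 4 higher and 1 lower. In F-EPC against M-EPC, edgeR called 1 higher and 3 lower and DESeq2 0, and limma without M-EPC replicate 2 called 9 higher and 3 lower. At an unadjusted p under 0.05, 38 end regions were higher and 92 lower in OVX-EPC than in M-EPC (3.65% and 8.83%), against 5.07% and 11.1% of all tested regions. In F-EPC 30 were higher and 70 lower than in M-EPC (5.98% and 13.9%, against 6.23% and 16.5%). In OVX-EPC against F-EPC 20 were higher and 17 lower (4.07% and 3.46%, against 3.49% and 2.72%). The shares at the ends were thus at or below the background against M-EPC and slightly above it against F-EPC. DESeq2 and edgeR also gave 0 calls at the ends in OVX-EPC against F-EPC.

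The region called in both comparisons with M-EPC is a distal intergenic one at chr1:6418794-6419193, assigned to the predicted gene Gm19026. It held 19 and 26 reads for M-EPC, 8 and 9 for F-EPC, and 8 and 4 for OVX-EPC, and both M-EPC libraries were above all others. The log2 fold change was -1.80 ± 0.42 (SE) in OVX-EPC (limma, adjusted p = 0.0443) and -1.65 ± 0.37 in F-EPC (limma, adjusted p = 0.0228). These calls rest on few reads, and the region reached the minimum for testing only through M-EPC, where it is high. With no filter on low values the adjusted p in limma was 0.0138 in OVX-EPC and 0.00582 in F-EPC. With the filter on reads, the adjusted p was 0.0483 and 0.0389 in edgeR, and 0.9999 and 0.965 in DESeq2. Without OVX-EPC replicate 1 or replicate 2 the adjusted p in limma was 0.0853 and 0.217, without either M-EPC library the region did not reach the minimum for testing in either comparison, and without F-EPC replicate 1 it was 0.104. With TMM factors the adjusted p values in limma were 0.121 and 0.06003. The 200 bases at chr1:6418894-6419093 (plus strand), outside annotated exons, are shown as the called sequence, with the only CpG of this stretch in capitals.
Gm19026 region, chromosome 1: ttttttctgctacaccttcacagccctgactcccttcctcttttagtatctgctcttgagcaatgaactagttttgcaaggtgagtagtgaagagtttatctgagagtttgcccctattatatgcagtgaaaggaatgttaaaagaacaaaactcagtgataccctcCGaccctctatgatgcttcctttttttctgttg

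The second call in F-EPC was the promoter region of Laptm4a at chr12:8921698-8922097, inside the first exon of the gene, which encodes a lysosomal membrane protein. It is a CpG-rich region with a GC content of 62% and 36 CpG sites, against 38.8% and 2 in the Gm19026 region. It held 44 and 42 reads for M-EPC, 23 and 24 for F-EPC, and 23 and 25 for OVX-EPC, with M-EPC above all other libraries. The log2 fold change was -1.22 ± 0.29 (SE) in F-EPC (limma, adjusted p = 0.0297) and -0.83 ± 0.28 in OVX-EPC (limma, adjusted p = 0.179). Without M-EPC replicate 1 or either F-EPC library the adjusted p in limma was 0.0867 to 0.229, and with TMM factors 0.0613. In DESeq2 the adjusted p of the Laptm4a region was 0.965, in edgeR 0.0387 and in limma with a minimum of 30 it was 0.00399.

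**Figure D5:**
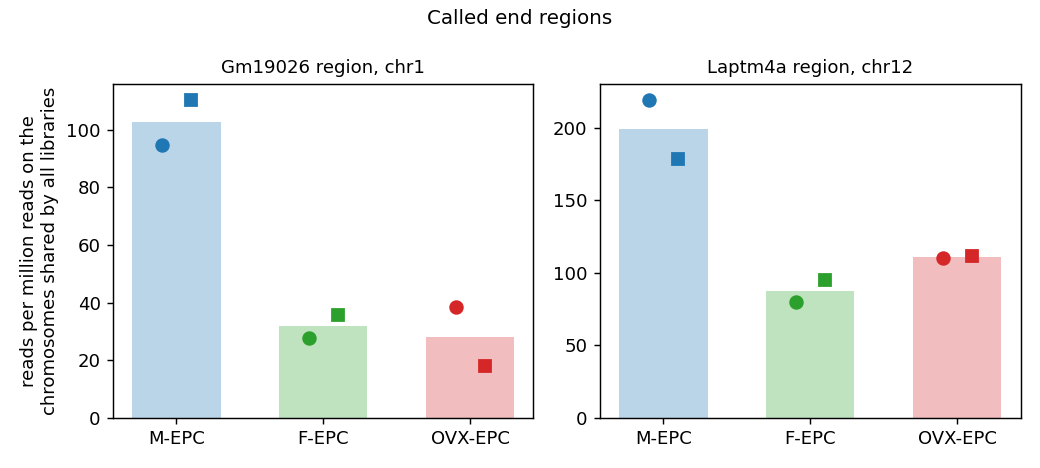
CPM on the chromosomes shared by all libraries, for the Gm19026 region (left) and the Laptm4a promoter region (right), with points for the 2 libraries of a group (circle replicate 1, square replicate 2) and bars for their mean. The M-EPC points lie above all F-EPC and OVX-EPC points in both regions.

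Other end regions with a small unadjusted p did not pass the adjusted threshold in this limma fit, and some passed under other settings. The lowest p among regions higher in OVX-EPC than in M-EPC belonged to regions near Epc1, a chromatin regulator of the NuA4 complex, Ccny, which encodes cyclin Y, and Olfr1350, an olfactory receptor. The Ccny region held 40 and 47 reads for M-EPC against 79 and 79 for OVX-EPC, with a log2 fold change of 0.84 ± 0.24 (limma, adjusted p = 0.127). It passed with TMM factors (limma, adjusted p = 0.0436), and edgeR gave an adjusted p of 0.0185 for Ccny, 0.031 for Epc1 and 0.0474 for Olfr1350. The Epc1 region held 5 and 4 reads for M-EPC against 20 and 16 for OVX-EPC, and the Olfr1350 region 4 and 4 against 16 and 16. Both regions reached the minimum for testing only through OVX-EPC, where they are high. DESeq2 gave an adjusted p of 0.662 for Ccny and none for Epc1 and Olfr1350. The Mir3471-2 and Gm15930 promoter regions held fewer reads in OVX-EPC, at 29 and 30 against 11 and 12 reads and at 28 and 35 against 8 and 18 (limma, adjusted p = 0.0766 and 0.0898). With no filter both passed in limma, with an adjusted p of 0.0477 and 0.0330. In F-EPC a region near Tab2, an adaptor of inflammatory kinase signalling, on chromosome 10 held 15 and 14 reads against 28 and 26 in M-EPC (limma, adjusted p = 0.0550). A region near Gm38024 on chromosome 1 held 22 and 19 reads in F-EPC, 7 and 3 for M-EPC against 6 and 10 for OVX-EPC, so both F-EPC libraries were above all others (limma, adjusted p = 0.0744 for the difference from M-EPC and 0.768 for that from OVX-EPC). Against M-EPC the Gm38024 region reached the minimum for testing only through F-EPC, where it is high. The region with the smallest p in OVX-EPC against F-EPC lay near Ccdc117 on chromosome 11, with 33 and 37 reads for F-EPC against 15 and 10 for OVX-EPC (log2 fold change -1.11 ± 0.33, limma, adjusted p = 0.768).

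None of the 10 strongest single regions was called in any comparison. The Sfi1 promoter region at chr11:3193193-3193592, the strongest end region at 615 CPM, held 283 and 316 reads for M-EPC, 426 and 347 for F-EPC, and 368 and 336 for OVX-EPC. Its log2 fold change was 0.22 ± 0.19 in OVX-EPC against M-EPC (limma, adjusted p = 0.576) and -0.03 ± 0.12 in F-EPC against M-EPC (limma, adjusted p = 0.910). Of the 10 strongest regions 9 lay in that locus, and the other was the single Gm25352 region on chromosome 3, with 298 and 275 reads for M-EPC against 300 and 332 for OVX-EPC. Vmn1r-ps2 was the strongest on chromosome 4, at chr4:3089991-3090390, with 150 and 171 reads for M-EPC against 248 and 262 for OVX-EPC. Its groups were well apart, and its log2 fold change was 0.66 ± 0.20 (limma, adjusted p = 0.148). Gm10722 on chromosome 9 held 132 and 142 reads for M-EPC against 189 and 203 for OVX-EPC (0.50 ± 0.20, limma, adjusted p = 0.238). The weakest of the 19 chromosome leaders was the Gm10044 promoter region of chromosome 14, with 42.3 CPM.

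None of the end regions assigned to a listed gene passed the test. The 6 gene lists named 38 genes, of which 28 had regions at the ends, 78 in all. Many of these are distal intergenic and only carry the name of the assigned gene. Of the 78 regions 30, 21 and 18 were tested in the OVX-EPC to M-EPC, F-EPC to M-EPC and OVX-EPC to F-EPC comparisons, and 0 were called in each by limma, with 6, 4 and 3 at an unadjusted p under 0.05. Of all tested regions 0.449%, 1.79% and 0.0127% were called, and 5.07%, 6.23% and 3.49% were higher and 11.1%, 16.5% and 2.72% lower at that unadjusted p. Among the endothelial genes, the Sox17 promoter region, of a factor of arterial identity, held 1 and 3 reads for M-EPC, 3 and 2 for F-EPC, and 8 and 9 for OVX-EPC. With so few reads it was not tested. The Yap1 promoter region held 18 and 29 reads for M-EPC against 21 and 22 for OVX-EPC. Among the hormone receptors, Esr1, the estrogen receptor alpha gene, had 13 regions and no promoter region. They summed to 100 and 128 reads for M-EPC, 126 and 123 for F-EPC, and 88 and 81 for OVX-EPC, with both OVX-EPC libraries below all others in raw reads. Esrra, an orphan receptor related to the estrogen receptors, had 1 promoter region with 53 and 49 reads for M-EPC against 33 and 31 for OVX-EPC (log2 fold change -0.67, limma, adjusted p = 0.236). Pgr, the other listed receptor gene, went the other way. Its 2 regions, both distal intergenic, held 4 and 12 reads for M-EPC against 19 and 26 for OVX-EPC. Among the cytokine genes, Il7r, the interleukin-7 receptor gene, had 12 regions that summed to 99 and 149 reads for M-EPC, 217 and 169 for F-EPC, and 99 and 124 for OVX-EPC. Among the chromatin genes, Chd7, a remodeller, had 7 regions with 93 and 81 reads for M-EPC against 46 and 65 for OVX-EPC, and Dnmt3a, a DNA methyltransferase, 5 regions with 36 to 57 reads in all. The Chd7 promoter region held 7 and 4 reads for M-EPC against 5 and 2 for OVX-EPC. Several other Chd7 regions are distal intergenic. The imprinted genes Peg3 and Zim1 held 23 and 27 and 25 and 34 reads in M-EPC and 39 and 37 and 50 and 45 in OVX-EPC, and 0 of their 4 tested regions passed an unadjusted p of 0.05. Of the developmental factors, Klf6 had 1 promoter region with 29 to 35 reads in the 6 libraries.

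By annotation the ends resembled the rest. Distal intergenic regions made up 56.6% at the ends and 54.1% on the rest, introns 18.8% and 21.6%, and promoters 21.6% and 20.6%. Promoters held 38.4% of the reads at the ends and 28.6% on the rest, and the median promoter region 20.3 and 17.0 CPM. The chromosome 11 locus alone held 15.1% of the end reads, and several of its strongest regions are annotated as promoters. Its part in the promoter share was not tested. Of the gene families, taken by the name of the assigned gene, vomeronasal receptor genes and pseudogenes had 23 end regions (0.707%, against 0.614% of the rest), with a median of 20.5 CPM against 11.7. These include the Vmn1r-ps2 and Vmn1r-ps151 loci, which are among the 10 strongest. The part of these loci in the median was not tested. Zinc finger (Zfp) genes had 57 (1.75%, against 1.59%), 17 of them on chromosome 7, with medians of 21.1 and 24.8. Olfactory receptors had 27 (0.830%, against 1.296%) and defensins 0 (against 0.0278%). The Akr1c aldo-keto reductase cluster on chromosome 13 had 15 end regions with a low median of 6.27 CPM. Predicted Gm genes took 40.2% of the end regions and 38.2% of the rest, and Rik genes 4.83% and 4.98%.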

How the data were processed

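H3K9me3 CUT&Tag libraries of the 3 groups (2 per group, assigned per the labels) were sequenced as short read pairs. The submitters' processing notes name BWA, MACS2 and mm10, while the methods of the study name Bowtie2, duplicate removal with Picard and removal of reads of low mapping quality, so the aligner used for these tables is uncertain. The authors deposited 3 tables, 1 for each comparison, with a normalized signal for each merged peak region and library. In each of them, 100% of the deposited signal values were whole reads divided by 1 size factor per library (tolerance 0.001), and these reads were recovered. The mean signal, log2 fold changes and p-values that the authors deposited in the same tables were not used.

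CPM are reads of a region scaled to 1000000 region reads of a library, or of its chromosomes where F-EPC was used. Single regions were tested with limma 3.58.1 (trend) in R 4.3.3 on log2(signal + 1), for regions with a signal of at least 10 in at least 2 of the 4 libraries of the comparison, with Benjamini-Hochberg adjustment over all tested autosomal and other regions at 0.05. A fold change on this scale understates the change of weak regions. Group shares were compared with exact permutation tests. Alternatives were TMM factors, a pseudocount of 0.1, a minimum of 30, no filter, edgeR 4.0.16 and DESeq2 1.42.0 on the recovered reads, limits of 5 and 20 Mb, distal regions only, and each library left out. On the recovered reads edgeR called 5, 4 and 0 end regions in OVX-EPC against M-EPC, F-EPC against M-EPC and OVX-EPC against F-EPC.

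Copies were sought with BLAST 2.17.0 in GRCm38.p6, which shares its coordinates with mm10, and sequences were read from that RefSeq assembly. Exons are those of GENCODE. Named regions are the called ones, the 3 with the smallest p in each direction whose groups do not overlap, the 10 strongest, the strongest of each chromosome, and those of the gene lists. The members and lists were chosen with earlier results of these data known, and the loci, repeat unit and printed sequences after values had been seen. Same-numbered libraries did not deviate together (r = -0.019, -0.052 and -0.031 in the 3 comparisons), which with 2 pairs does not settle whether the numbers pair the libraries, and the block was used as an alternative only.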

Additional observations from a re-analysis of the deposited data

How the results depend on the processing

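Every call of a single end region and every F-EPC share depended on a setting, and the cause was not tested. The counts of called end regions in OVX-EPC against M-EPC (1) were 1 with TMM factors and 1 with DESeq2, both higher in OVX-EPC and not the Gm19026 call (adjusted p 0.121 and 0.9999), 0 with a pseudocount of 0.1, 5 with a minimum of 30, 3 with no filter, 5 with edgeR (4 higher and 1 lower) and 0 to 0 with each library left out. In F-EPC against M-EPC (2) they were 0 with TMM factors, 8 with a minimum of 30, 10 with no filter, 4 with edgeR, 0 with DESeq2 and 0 to 12 with a library left out (12 without M-EPC replicate 2, 9 of them higher, 0 without M-EPC replicate 1 and 4 without F-EPC replicate 1). In OVX-EPC against F-EPC (0) they were 0 to 4, with 4 without OVX-EPC replicate 2. With the replicate number as a block the counts were 1, 5 and 0 and the share differences stayed 0.431, 0.168 and 0.224 percentage points, but the labels share only a number, and whether it marks a pairing is not known. The share difference of F-EPC against M-EPC turned to -0.0397 in distal intergenic regions, and that of OVX-EPC against F-EPC to -0.0397 in distal intergenic regions, -0.0709 without the 10 strongest loci and -0.0549 without the first megabase. The last 2 settings, and TMM factors for the median differences, were chosen after seeing the data. The end minus rest median log2 fold change of OVX-EPC against M-EPC (0.11) was 0.15 at 5 Mb, 0.074 at 20 Mb, 0.31 with a minimum of 30, 0.020 with no filter, 0.046 without the 10 loci, 0.046 without the first megabase and 0.077 to 0.12 with a library left out. That of F-EPC against M-EPC (0.068) was 0.11 at 5 Mb, 0.27 with a minimum of 30, -0.013 with no filter, 0.022 in distal regions, 0.034 without the 10 loci, -0.0099 without the first megabase and 0.046 to 0.11 with a library left out. That of OVX-EPC against F-EPC (0.023) was 0.075 at 5 Mb, 0.066 with a minimum of 30, -0.015 in distal regions and -0.016 to 0.051 with a library left out. The end minus rest median level (0.027) was 0.24 at 5 Mb, -0.051 at 20 Mb, 0 without the first megabase and 0 to 0.033 with a library left out (0 without F-EPC replicate 1). The share difference of OVX-EPC against M-EPC (0.431) stayed above 0 under the settings tried but ran from 0.0508 to 0.947, and from 0.339 to 0.522 with a library left out. With a library left out, F-EPC against M-EPC ran from 0.0757 to 0.260 and OVX-EPC against F-EPC from 0.0160 to 0.431. A median of 5 to 9 reads per end region and library limits what single regions can show.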
